A study of Rattus norvegicus with 12 samples.

Results

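Interferon response genes were followed in the fracture hematoma of rats, the clot and granulation tissue that fills a bone gap after an osteotomy. The 40 genes were given as a list of well known targets and mediators of interferon, by name and with no threshold on a measured value. For each gene the brightest probe set that the platform annotation ties to that gene and no other was used. This left 38 of the 14217 genes measured in this way, with 48 probe sets among 31042 tested. Xaf1 and Gbp5 were not analysed here. The sensor listed as Ddx58 is named Rig1 in the current rat gene table. Total RNA was taken on day 3 from a 1.5 mm gap in the femur of Sprague-Dawley rats, all of which carried an external fixator and had no other treatment named. Young rats were 12 weeks old and old rats 52 weeks. The distance between fixator and bone was 7.5 mm in the rigid and 15 mm in the semi-rigid arrangement. Crossing age with fixation gave 4 groups of 3 arrays each, called YR and YSR for young rats under the rigid and the semi-rigid fixator, and OR and OSR for their old counterparts. Every array held the pooled RNA of 3 animals, so the spread between arrays is a spread between pools, and p-values measure that spread only. The study asked how age and fixation act together on early healing.

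Interferons are secreted alarm signals. Type I interferons act through a receptor that switches on a complex with STAT2 and IRF9, which binds the interferon-stimulated response element (ISRE) in front of antiviral genes such as Mx1 and Isg15. Interferon-gamma, made mainly by T and NK cells, acts through a receptor of its own, whose signal ends at gamma-activated sites (GAS) near genes such as Cxcl9, Gbp2 and Psmb9. In injured tissue the same genes are carried by macrophages, neutrophils, lymphocytes and stromal cells alike, and in bulk tissue fewer cells of a type and less RNA per cell cannot be told apart.

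The promoters of the genes show which of these sites they hold. RefSeq promoters (GRCr8) were found for 30 of the 38 genes. In the 250 bases upstream of the start, the ISRE core GAAANNGAA, searched on both strands, was present in 16 of the 30 promoters (53.3%) and in 7.99% of all 27457 rat promoters of that length. The GAS letters TTCNNNGAA, which read the same on both strands, were present in 10 (33.3%) and in 7.52% of all promoters. Both were held by 5 (16.7%) against 0.903% of all, and in 1 of the 30 they overlapped, as in 0.127% of all. The windows below are shown because they belong to genes described here or show how the sites sit together, with the ISRE cores and GAS letters in capitals. Oas1a and Oas1b, nearby genes for antiviral synthetases, each hold a pair of cores that overlap.
Oas1a (GRCr8, chr12:41330406-41330465, plus strand): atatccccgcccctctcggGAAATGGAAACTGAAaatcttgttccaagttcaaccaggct
Oas1b (GRCr8, chr12:41395871-41395930, minus strand): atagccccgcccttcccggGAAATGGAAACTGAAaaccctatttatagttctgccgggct
Bst2 (GRCr8, chr16:18255058-18255117, minus strand): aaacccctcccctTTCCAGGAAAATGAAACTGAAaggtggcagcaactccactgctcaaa
Gbp2 (GRCr8, chr2:234005667-234005726, plus strand): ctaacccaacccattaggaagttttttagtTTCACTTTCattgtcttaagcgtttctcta
Ifit3 (GRCr8, chr1:241527266-241527325, plus strand): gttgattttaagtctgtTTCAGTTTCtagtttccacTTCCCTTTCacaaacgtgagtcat
Rsad2 (GRCr8, chr6:48788232-48788291, minus strand): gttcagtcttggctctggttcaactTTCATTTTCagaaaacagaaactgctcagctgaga
Cmpk2 (GRCr8, chr6:48802734-48802793, plus strand): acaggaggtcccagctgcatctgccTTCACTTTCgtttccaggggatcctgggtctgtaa
Irf8 (GRCr8, chr19:65699098-65699157, plus strand): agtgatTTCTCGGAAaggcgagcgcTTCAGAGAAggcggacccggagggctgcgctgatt
The Bst2 window is the one in which GAS letters and cores run into each other. The Irf8 window holds GAS letters in 2 places and no ISRE core. Neither motif was found in the upstream windows of Mx1, Cxcl9 and Psmb9, which says only that these letters are not in those 250 bases. Gbp2 held an ISRE core but no GAS letters, and Isg15 was among the genes without a promoter sequence. The ISRE core of Tap1, the neighbour of Psmb9, lies within chr20:4668629-4668688. That is outside the Psmb9 window, chr20:4668750-4668999. A match is a description of the letters, not of binding.

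Most of the genes were brighter than the median probe set, and pools of the same group could lie far apart. The mean log2 signal of 34 of the 38 genes was at or above 7.16, the median over all probe sets, and Ifih1, Oas1b, Cxcl9 and Cxcl11 lay below it. Herc6 (7.20) and Ifi44l (7.39) lay little above it. Set against each gene's own mean over the 12 arrays, OR replicate 3 had 35 of 38 genes above the mean, with a median deviation of 0.54 on the log2 scale. OR replicate 2 had 30 genes above and a median of 0.34, whereas OR replicate 1 had 7 above and a median of -0.29. In OSR replicate 2 only 5 genes were above their mean (median -0.39), and in YSR replicate 1 there were 10 (median -0.27). The 3 YR arrays lay between 0.02 and 0.07. OR replicate 3 was the highest array of all for 17 genes and OR replicate 2 for 9. The lowest array was OSR replicate 2 for 10 genes and YSR replicate 1 for 9. No group stood above all other arrays for any of the 38 genes, as YSR did for 0.564% of all probe sets, YR for 0.312%, OSR for 0.316% and OR for 1.05%. Below all other arrays lay YSR for Rtp4 and OR for Irf8, and neither YR (0.615% of all probe sets) nor OSR (0.387%) for any.

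**Figure D1:**
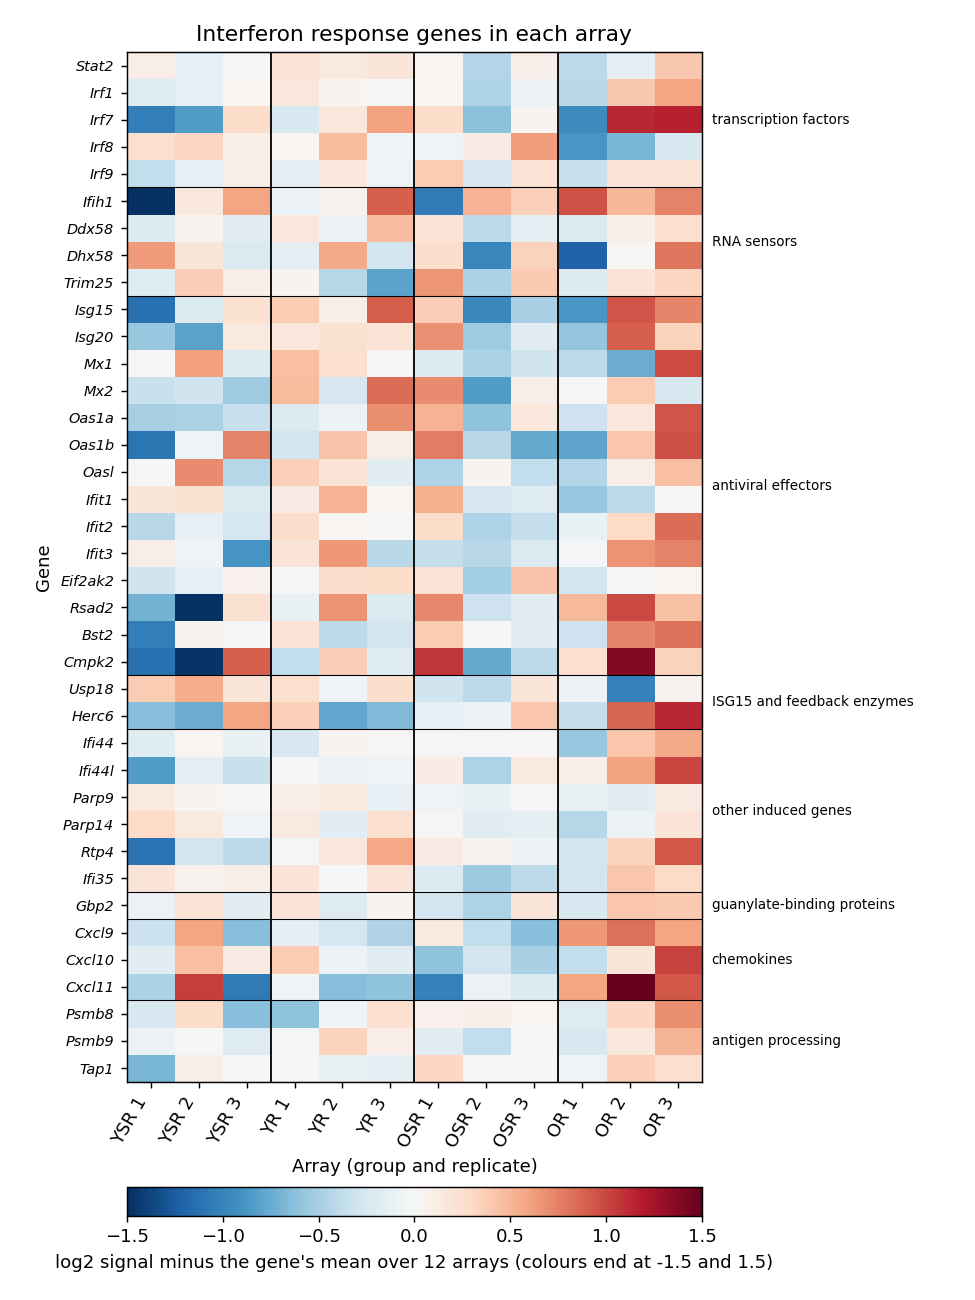
Log2 signal of 38 interferon response genes (vertical axis, ordered by role) in the 12 arrays (horizontal axis), as the difference from each gene's mean over all arrays. OR 2 and OR 3 are mostly red, with 30 and 35 genes above their mean, while OSR 2, with 5 above, is mostly blue, and Irf8 is blue in all 3 OR arrays.

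Other measures moved with these pools. The 3′ to 5′ ratio of the Gapdh control probe sets, a sign of RNA integrity, was 6.69 on the log2 scale in YSR replicate 1 and 2.96 in OR replicate 1, against 0.33 to 1.59 in the other arrays. The mean log2 signal of 5 skeletal muscle markers ran from 6.62 to 12.10 in OR and from 7.0 to 13.34 in OSR, against 10.99 to 12.38 in YSR and 11.68 to 12.23 in YR. The arrays low in muscle were OR replicate 2, with a deviation of -4.29 from the mean over all arrays, OSR replicate 1 (-3.91) and OR replicate 3 (-1.63). The 15 T and NK cell markers had array means of 6.58 to 7.02 in YSR, 6.81 to 7.75 in YR, 7.23 to 7.58 in OSR and 7.15 to 8.0 in OR, with 8 of the 15 at or above the median of all probe sets. OR replicate 3 was the array with the highest mean of the T and NK, B cell and neutrophil marker lists, with deviations of 0.81, 2.48 and 1.63. The B cell list held 3 measured genes. Cd8a (9.54 against a mean of 10.27) and Cd8b (8.49 against 8.59) were low in that array, and the other T and NK markers lay above their means. The 4 measured endothelial markers, Pecam1, Kdr, Vwf and Tek, each had their highest group mean in OR. Their array means were 9.89 to 10.92 in OR and 9.05 to 10.26 in OSR. In YSR they were 8.98 to 9.41 and in YR 8.98 to 9.57. The part of muscle, leukocytes, endothelium, erythroid cells and RNA quality in the interferon gene levels was not tested. Erythroid markers (12.68 to 14.46) and macrophage markers (10.58 to 11.64), which a hematoma should carry, were bright in every array. The erythroid means were 12.68 to 14.0 in YSR and 13.7 to 14.43 in YR. They were 13.7 to 14.23 in OSR and 14.06 to 14.46 in OR. Slc4a1 (9.58 and 13.25) and Alas2 (12.70 and 15.01) were lowest in YSR replicate 2 and highest in OR replicate 2, as were Rsad2 and Cmpk2. Hbb, the other erythroid gene measured, was higher in YSR replicate 2 (15.75) than in OR replicate 2 (15.12).

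**Figure D2:**
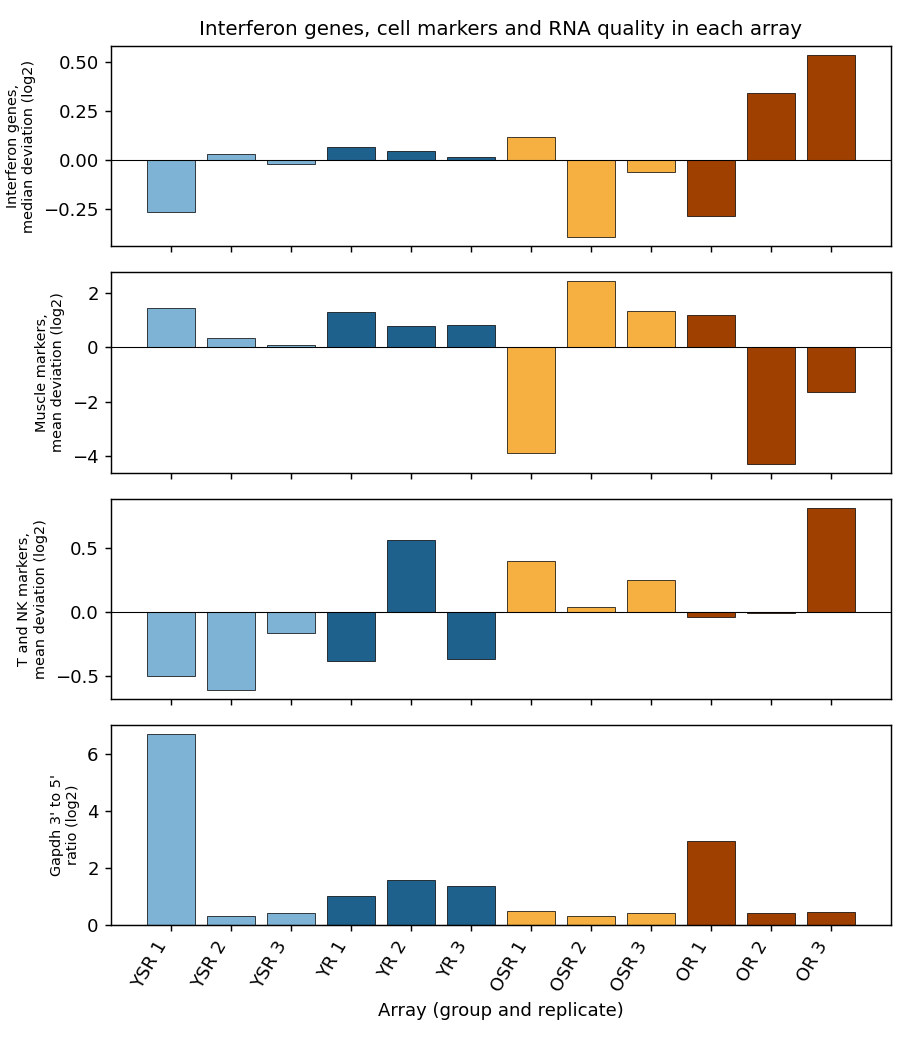
Bars for each of the 12 arrays, coloured by group, show from top to bottom the median deviation of the 38 interferon genes, the mean deviation of skeletal muscle markers, that of T and NK cell markers, and the Gapdh 3′ to 5′ ratio, all on the log2 scale. OR 2 and OR 3 are highest for the interferon genes and below the mean for muscle, and YSR 1 has the highest Gapdh ratio, 6.69.

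Under rigid fixation most interferon genes had a higher mean than under semi-rigid fixation, though none passed the test. Averaged over age, 31 of the 38 genes were higher under rigid fixation (81.6%), against 49.5% of all probe sets. The median log2 difference was 0.26 for these genes and -0.0035 for all probe sets. With limma and Benjamini-Hochberg adjustment over all probe sets, 0 of the 38 genes were called, as were 0% of all probe sets. The methods' test, an analysis of variance held here to the same adjustment, also called 0 of them. The paper's own cut, a p under 0.05 with a fold-change limit and no adjustment named, was not applied. At an unadjusted p under 0.05, 7 genes (18.4%) were higher, against 2.53% of all probe sets, and 1 gene was lower, against 3.2%. The 7 were Ifit2, Ifit3, Rsad2, Ifi44l, Rtp4, Ifi35 and Psmb9, and the lower gene was Irf8. The methods' test gave 4 higher genes in place of 7.

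Single pools carried much of this count. It was 15 without OR replicate 1, 2 without OSR replicate 2, 3 without OR replicate 2, 3 without OR replicate 3 and 4 without YR replicate 3. Without the 3 arrays low in muscle markers, which leaves OR with 1 array assumed to vary like the rest, 22 of 38 genes were higher under rigid fixation, 1 of them at an unadjusted p under 0.05, and the median was 0.02.

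**Figure D3:**
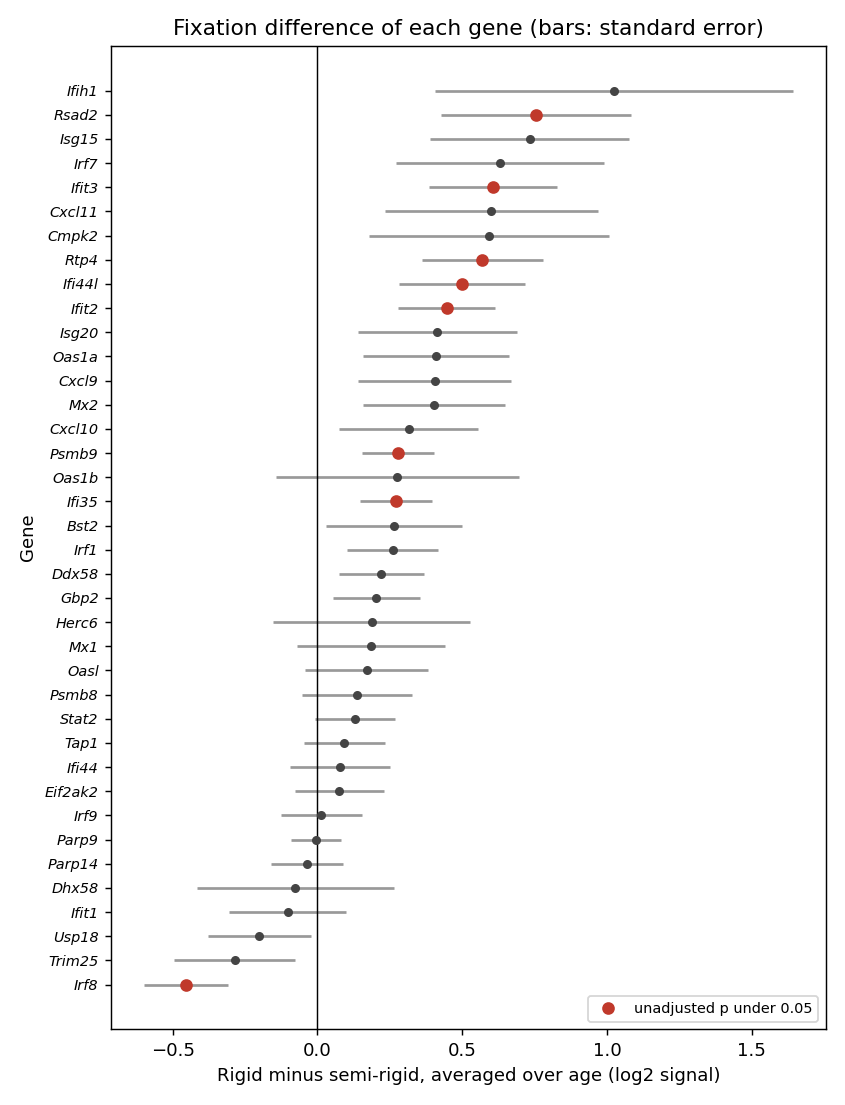
Log2 difference between rigid and semi-rigid fixation, averaged over age (horizontal axis), for each of 38 genes (vertical axis), with bars for the standard error of the limma fit and red points at an unadjusted p under 0.05. The points run from -0.45 for Irf8 to 1.02 for Ifih1, and 31 of the 38 lie to the right of 0. The dim gene Ifih1 was 3.22 in YSR 1, the array of highest Gapdh ratio, and 5.81 to 7.83 in the other arrays.

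Taken by role, most antiviral effectors had a higher mean under rigid fixation. Of 14, 13 did so and the median log2 difference was 0.41. All 3 chemokines were higher, with a median of 0.40, as were all 3 antigen processing genes, with 0.14. Of the transcription factors 4 of 5 were higher (median 0.13) and of the remaining induced genes 4 of 6 (median 0.17). The RNA sensors split evenly, 2 of 4, with a median of 0.07, and of the enzymes that add or remove ISG15, Herc6 was higher and Usp18 lower. Among the 30 genes with a promoter sequence, 15 of the 16 that hold an ISRE core were higher under rigid fixation, with a median of 0.36, and 11 of the 14 without one, with a median of 0.18. No test was made of that contrast.

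In young rats the antiviral effectors stood on 1 side. All 14 had a lower mean in YSR than in YR, with a median log2 difference of -0.40. With 1 of the 6 young arrays left out at a time, 11 to 14 of them were still lower, and the 11 were found without YSR replicate 1, the array with the highest Gapdh ratio. Over all 38 genes 28 were lower in YSR (median -0.16), while 52.6% of all probe sets were higher. Without YSR replicate 1 that median was -0.05. The YSR and YR arrays did not overlap for 7 genes lower in YSR (18.4%), against 3.65% of all probe sets. They were Stat2, Isg20, Mx2, Oas1a, Ifit2, Ifi44l and Rtp4. For 0 genes did YSR lie above YR, against 5.73% of all probe sets. With limma 0 genes were called (0% of all probe sets), and the methods' test called 0 as well. At an unadjusted p under 0.05 only Rtp4 was lower, against 1.6% of all probe sets, and 0 genes were higher, against 2.77%. The count of 1 became 0 without YSR replicate 1, 4 without YSR replicate 3 and 2 without YR replicate 2, and since all groups share the estimate of spread it was also 2 without OSR replicate 1, OSR replicate 2 or OR replicate 1. The methods' test gave 2.

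In old rats 30 of the 38 genes were lower in OSR than in OR, with a median of -0.30 against -0.01 for all probe sets. With limma 0 were called (0% of all probe sets), as with the methods' test. At an unadjusted p under 0.05, 5 were lower, against 2.83% of all probe sets, namely Ifit2, Ifit3, Ifi35, Cxcl9 and Cxcl11, and Irf8 was higher, against 2.43%. The methods' test gave 3 lower genes. The count of 5 was 14 without OR replicate 1, 0 without OR replicate 2, 3 without OR replicate 3, 3 without OSR replicate 1 and 2 without OSR replicate 2. Without the 3 arrays low in muscle markers the direction turned, with 13 of 38 genes lower in OSR and a median of 0.11. That fit leaves OR replicate 1 as the only OR array. This pool had a Gapdh ratio of 2.96 and the lowest median deviation in OR, -0.29. The 3 arrays were left out together, and OSR replicate 1 had the highest median deviation of the OSR arrays, 0.12. The young pair holds none of those arrays. Groups did not overlap for 3 genes lower in OSR (7.89%, against 5.74% of all probe sets), which were Ifit3, Cxcl9 and Cxcl11, and for Irf8, higher in OSR (5.04% of all probe sets).

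Among the transcription factors Irf8 went its own way. Irf8 takes part in the development of macrophages, dendritic cells and B cells and is induced by interferon-gamma. Its log2 signal, in replicate order, was 11.04, 11.12 and 10.90 in YSR, 10.83, 11.27 and 10.73 in YR, 10.75, 10.92 and 11.42 in OSR, and 9.93, 10.12 and 10.56 in OR. All 3 OR arrays lay below every other array, as was so for 0.805% of all probe sets. The mean was 10.20 ± 0.32 (SD, n = 3) in OR and 11.03 ± 0.35 (SD, n = 3) in OSR. The log2 difference OSR minus OR was 0.83 (SE 0.21, limma unadjusted p = 0.00159, adjusted p = 0.872) and YR minus OR was 0.74 (SE 0.21, adjusted p = 0.323 by limma). In the rigid against semi-rigid contrast the log2 difference was -0.45 (SE 0.15) and in old against young -0.37 (SE 0.15), with limma adjusted p of 0.845 and 0.504. The mean of the macrophage markers was also low in OR replicates 2 and 1, with deviations of -0.73 and -0.50, but 0.18 in OR replicate 3. In that array C1qa (12.00 against a mean of 11.01), C1qb, C1qc and Itgam lay above their own means. Cd14, Cd68, Cd163, Csf1r and Mrc1 lay below their own means in all 3 OR arrays. The part of macrophage markers in the Irf8 levels was not tested.

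Irf7, which drives the production of type I interferon, ranged over 2.20 on the log2 scale. This was one of the 3 widest ranges among the genes at or above the median signal. Its log2 signal was 10.58, 10.79 and 11.90 in YSR, 11.39, 11.79 and 12.22 in YR, 11.89, 11.01 and 11.66 in OSR, and 10.67, 12.75 and 12.78 in OR. The highest and almost the lowest value were both in OR, which had an SD of 1.21 and overlapped every other group.

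Among the antiviral effectors, Ifit2 and Ifit3 encode proteins of the antiviral IFIT family and are adjacent on chromosome 1, with Ifit1 close by. The log2 signal of Ifit2 was 9.30, 9.59 and 9.45 in YSR, 9.98, 9.74 and 9.72 in YR, 9.99, 9.26 and 9.36 in OSR, and 9.61, 10.01 and 10.55 in OR. YSR lay below YR and below OR without overlap, and OSR overlapped the rigid groups through its replicate 1 and YSR through its replicate 3. The rigid minus semi-rigid log2 difference of Ifit2 was 0.45 (SE 0.17, limma unadjusted p = 0.02, adjusted p = 0.845), and its dimmer probe set gave 0.43.

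The log2 signal of Ifit3, whose window above holds a pair of ISRE cores, was 8.90, 8.74 and 7.92 in YSR, 8.99, 9.45 and 8.39 in YR, 8.45, 8.39 and 8.59 in OSR, and 8.77, 9.48 and 9.55 in OR. OSR lay below OR, whereas the young groups overlapped. Its log2 difference between rigid and semi-rigid fixation was 0.61 (SE 0.22, limma unadjusted p = 0.0168, adjusted p = 0.845).

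Rsad2 (viperin, which blocks viral replication) and its neighbour on chromosome 6, Cmpk2 (a mitochondrial nucleotide kinase), had the widest ranges of the genes at or above the median signal. The log2 signal of Rsad2 was 12.76, 11.43 and 13.69 in YSR, 13.35, 14.13 and 13.25 in YR, 14.18, 13.15 and 13.30 in OSR, and 13.95, 14.45 and 13.90 in OR. That of Cmpk2 was 8.65, 8.30 and 10.66 in YSR, 9.40, 10.14 and 9.58 in YR, 10.84, 9.01 and 9.37 in OSR, and 10.01, 11.14 and 10.11 in OR. For both genes YSR replicate 2 was lowest and OR replicate 2 highest, 3.02 apart for Rsad2 and 2.84 for Cmpk2 on the log2 scale, and within YSR alone the SD was 1.14 and 1.27. The old minus young log2 difference of Rsad2 was 0.72 (SE 0.33, limma unadjusted p = 0.0477, adjusted p = 0.576), and the old and young arrays overlapped, though YSR lay below OR.

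Isg15 is a ubiquitin-like protein attached to other proteins during viral infection. Its log2 signal was 8.06, 8.96 and 9.41 in YSR, 9.57, 9.28 and 10.09 in YR, 9.56, 8.22 and 8.69 in OSR, and 8.32, 10.13 and 9.92 in OR. The rigid groups had the higher means, 9.65 ± 0.41 in YR and 9.45 ± 0.99 in OR against 8.81 ± 0.68 in YSR and 8.82 ± 0.68 in OSR (SD, n = 3), but overlapped the semi-rigid groups. Averaged over age the rigid minus semi-rigid log2 difference was 0.73 (SE 0.34, limma adjusted p = 0.845).

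Mx1, a GTPase that traps viral particles, gave no such split. Its log2 signal was 8.97, 9.57 and 8.75 in YSR, 9.40, 9.20 and 8.98 in YR, 8.75, 8.48 and 8.66 in OSR, and 8.56, 8.22 and 9.94 in OR. OR held both the lowest and the highest array of all 12. Rigid minus semi-rigid, the log2 difference was 0.18 (SE 0.26) and -0.07 without OR replicate 3.

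Usp18 removes ISG15 from proteins and dampens the type I receptor. Its log2 signal was 10.26, 10.44 and 10.06 in YSR, 10.11, 9.83 and 10.14 in YR, 9.58, 9.48 and 10.06 in OSR, and 9.80, 8.86 and 9.93 in OR. The old arrays were lower than the young on the whole, and YSR lay just above OSR without overlap. The old minus young log2 difference was -0.52 (SE 0.18, limma unadjusted p = 0.0125, adjusted p = 0.406), against a positive median over the interferon genes.

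Rtp4, an interferon-induced chaperone of membrane receptors, was the gene that set YSR apart. Its log2 signal was 7.80, 8.63 and 8.51 in YSR, 8.88, 9.08 and 9.49 in YR, 9.03, 8.94 and 8.83 in OSR, and 8.64, 9.24 and 9.84 in OR. All 3 YSR arrays lay below every other array, as was so for 0.406% of all probe sets, but the highest of them nearly reached the lowest OR array. The log2 difference YSR minus YR was -0.84 (SE 0.30, limma unadjusted p = 0.0148, adjusted p = 0.991) and -0.58 without YSR replicate 1. The rigid minus semi-rigid difference was 0.57 (SE 0.21, limma adjusted p = 0.845).

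Ifi35 was low in OSR. The log2 signal of this gene, which encodes a leucine zipper protein induced by interferon, was 10.08, 9.94 and 9.98 in YSR, 10.08, 9.89 and 10.08 in YR, 9.69, 9.34 and 9.50 in OSR, and 9.61, 10.31 and 10.19 in OR. The young groups lay together and above OSR without overlap, while OR replicate 1 fell among the OSR arrays. The log2 difference OSR minus OR was -0.53 (SE 0.18, limma unadjusted p = 0.0106, adjusted p = 0.896) and YSR minus OSR was 0.49 (SE 0.18, limma adjusted p = 0.959).

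Ifi44l had a log2 signal of 6.55, 7.25 and 7.06 in YSR, 7.36, 7.31 and 7.33 in YR, 7.50, 6.93 and 7.54 in OSR, and 7.46, 7.99 and 8.39 in OR. YSR lay below YR and YR below OR without overlap. The old minus young log2 difference was 0.49 (SE 0.22, limma unadjusted p = 0.0427, adjusted p = 0.56).

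**Figure D4:**
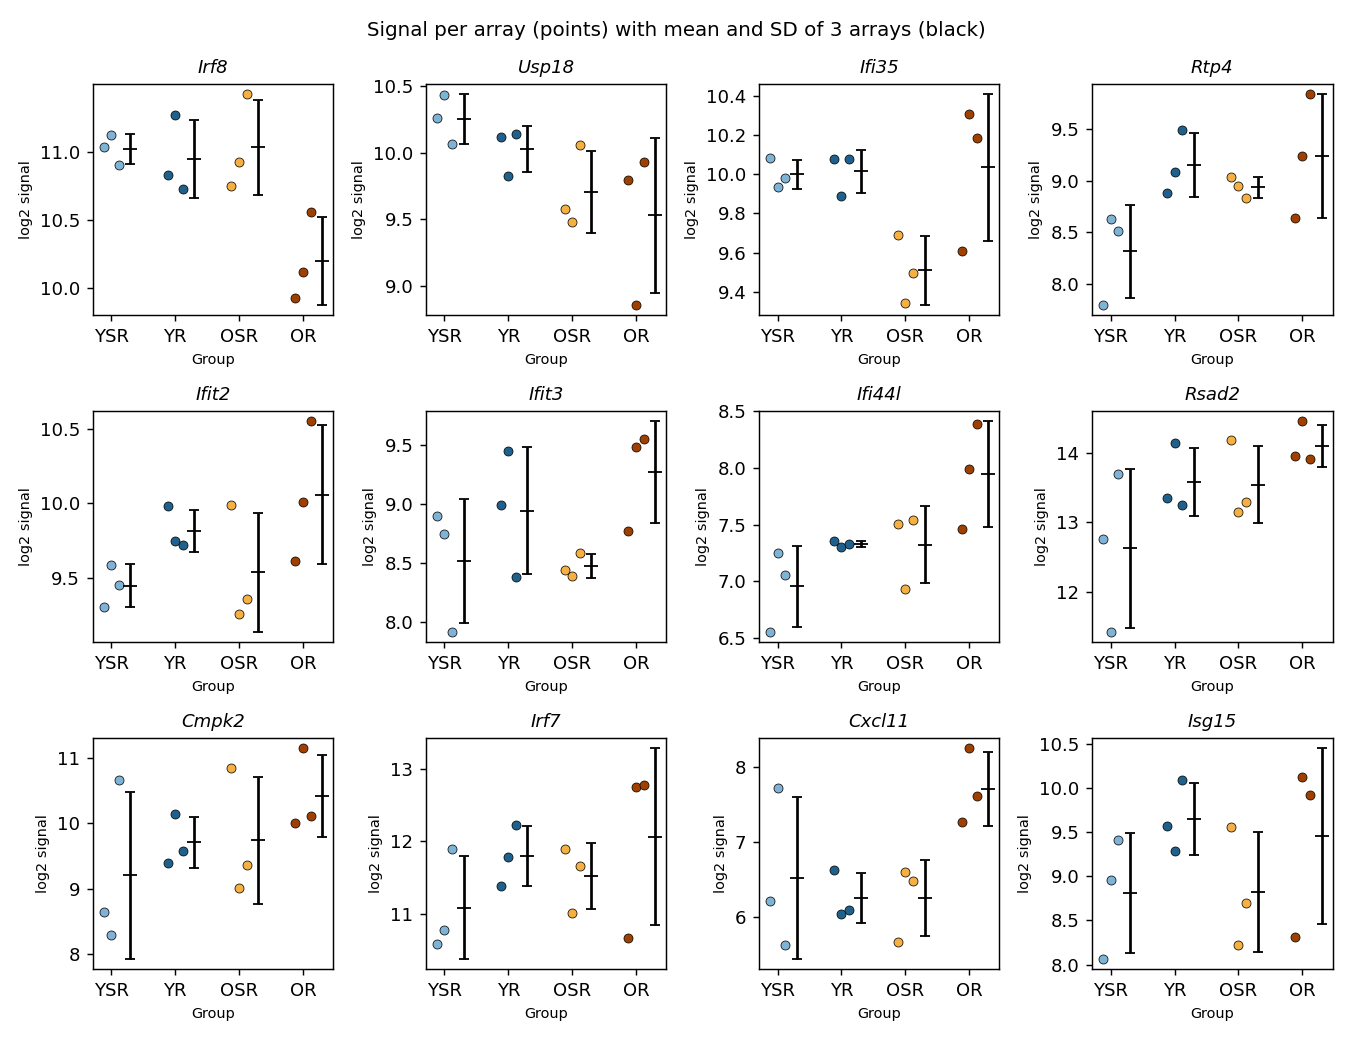
Log2 signal (vertical axes) of 12 named genes in the 4 groups (horizontal axes), with a point for each array and a black bar for the mean and SD of 3 arrays. Irf8 is lowest in all 3 OR arrays, Rtp4 in all 3 YSR arrays, and the OR points of Irf7 and Isg15 lie far apart.

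The chemokines that draw T cells through the receptor CXCR3 had their highest group means in OR. For Cxcl10, the brightest of the 3, OR overlapped every other group, with a mean of 7.85 against 7.72 in YSR. The log2 signal of Cxcl9 was 6.42, 7.34 and 6.10 in YSR, 6.60, 6.48 and 6.29 in YR, 6.88, 6.37 and 6.11 in OSR, and 7.38, 7.56 and 7.33 in OR. That of Cxcl11 was 6.21, 7.72 and 5.62 in YSR, 6.63, 6.04 and 6.08 in YR, 5.66, 6.60 and 6.48 in OSR, and 7.27, 8.25 and 7.62 in OR. For both genes OR lay above YR and OSR without overlap, and YSR replicate 2 reached into the OR range. The OR mean of Cxcl9 was 7.43 ± 0.12 and the OSR mean 6.45 ± 0.39 (SD, n = 3), a log2 difference OSR minus OR of -0.97 (SE 0.37, limma adjusted p = 0.901). For Cxcl11 that difference was -1.47 (SE 0.52, limma unadjusted p = 0.0149, adjusted p = 0.896). The YR minus OR difference was -0.97 (SE 0.37) for Cxcl9 and -1.46 (SE 0.52) for Cxcl11, with limma adjusted p of 0.525 and 0.473. Both genes are dim, with mean signals below the median of all probe sets, and lie on either side of Cxcl10 on chromosome 14. A second, still dimmer probe set of Cxcl9 gave -0.40 for OSR minus OR and 0.21, the opposite direction, for YR minus OR, and the mean of both probe sets gave -0.38 for the latter. Cxcl9 was as high in OR replicate 1 as in the other OR arrays, and Cxcl11 was lowest of the 3 there.

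Gbp2, a guanylate-binding protein that attacks pathogen compartments, differed little. Its log2 signal was 9.79, 10.07 and 9.72 in YSR, 10.07, 9.68 and 9.92 in YR, 9.58, 9.41 and 10.06 in OSR, and 9.65, 10.29 and 10.26 in OR, and all groups overlapped. The rigid minus semi-rigid log2 difference was 0.20 (SE 0.15, limma adjusted p = 0.881) and -0.03 without the 3 arrays low in muscle markers.

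Psmb9, an immunoproteasome subunit that cuts peptides for MHC class I, had a log2 signal of 10.92, 11.01 and 10.81 in YSR, 10.99, 11.33 and 11.10 in YR, 10.84, 10.63 and 10.97 in OSR, and 10.76, 11.15 and 11.51 in OR. The rigid minus semi-rigid log2 difference was 0.28 (SE 0.12, limma unadjusted p = 0.0427, adjusted p = 0.845). YSR and YR overlapped slightly, and OSR and OR overlapped through OR replicate 1.

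Between the ages the genes went both ways. Old rats had the higher mean for 22 of 38 genes (57.9%), against 53.1% of all probe sets, and the median log2 difference was 0.10 against 0.02. With limma 0 of the genes were called, against 0.00644% of all probe sets, and the methods' test called 0. At an unadjusted p under 0.05, 2 were higher (5.26%, against 4.7% of all probe sets), Rsad2 and Ifi44l, and 2 were lower (against 3.89%), Irf8 and Usp18, so that the share was near the background. The old minus young log2 differences of the genes of interest were 0.40 (SE 0.26) for Cxcl9, -0.0003 (SE 0.15) for Gbp2, -0.05 (SE 0.12) for Psmb9, -0.38 (SE 0.26) for Mx1 and -0.09 (SE 0.34) for Isg15. Without the 3 arrays low in muscle markers, which leaves OR replicate 1 alone in its group, the median over the 38 genes was -0.19. Comparing YSR with OSR, the median log2 difference was -0.01, 0 genes were called by limma (0.00322% of all probe sets) or by the methods' test, and at an unadjusted p under 0.05 only Ifi35 was higher in YSR (2.33% of all probe sets) and 0 genes were lower (2.03%). YSR lay above OSR without overlap for Usp18, Parp9, Ifi35 and Cxcl10 (10.5%, against 4.9% of all probe sets) and below it for Rtp4 (against 4.08%). Comparing YR with OR, the median was -0.12, 0 genes were called by either test (0.00322% of all probe sets), and at an unadjusted p under 0.05 Irf8 was higher in YR (against 3.54%) and Cxcl9 and Cxcl11 lower (against 4.8%). YR lay above OR without overlap for 2 genes (against 6.04% of all probe sets) and below it for 3 (against 7.75%). The median of YR minus OR was 0.39 without the 3 arrays low in muscle markers, -0.39 without OR replicate 1 and 0.08 without OR replicate 3.

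The groups that differed in both age and fixation were compared as well, and these comparisons share arrays with those above. For YSR minus OR the median log2 difference was -0.31, 0 genes were called by limma (0% of all probe sets) or by the methods' test, and at an unadjusted p under 0.05, 7 genes were lower (18.4%, against 5.1% of all probe sets) and 2 higher (against 4.79%). YSR lay below OR without overlap for 6 genes (15.8%, against 7.29% of all probe sets) and above it for 2 (against 6.84%). For OSR minus YR the median was -0.20, 0 were called by either test (0.00322% of all probe sets), and at an unadjusted p under 0.05, 1 was lower (against 1.75%) and 0 were higher (against 3.08%). OSR lay below YR without overlap for 5 genes (13.2%, against 4.9% of all probe sets) and above it for 1 (against 6.62%).

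The interaction asked if the semi-rigid minus rigid difference was the same at both ages. With limma 0 of the 38 genes were called (0% of all probe sets), nor by the methods' test. At an unadjusted p under 0.05, Cxcl11 was higher (against 2.37% of all probe sets) with 1.73 (SE 0.74, limma adjusted p = 0.99) and Irf8 lower (against 1.43%) with -0.75 (SE 0.29, limma adjusted p = 0.99), both as differences of log2 differences. The value was 1.14 (SE 0.53) for Cxcl9, 0.36 (SE 0.30) for Gbp2, 0.10 (SE 0.25) for Psmb9, 0.18 (SE 0.51) for Mx1 and -0.20 (SE 0.69) for Isg15. The second probe set of Cxcl9 gave -0.69, the opposite sign, and the mean of both 0.22. The median over the 38 genes was 0.10 against 0.03 for all probe sets. It was 0.44 without the 2 arrays of high Gapdh ratio and -0.30 without the 3 arrays low in muscle markers. The latter fit leaves OR replicate 1 alone in its group.

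Interferon-gamma genes (Cxcl9, Gbp2 and Psmb9) and type I genes (Mx1 and Isg15) were set side by side in each array, as the mean of each gene's log2 deviation from its own mean. Interferon-gamma minus type I was 0.39, 0.07 and -0.34 in the YSR arrays, -0.40, -0.21 and -0.56 in YR, -0.19, 0.32 and 0.24 in OSR, and 0.69, 0.36 and -0.36 in OR. YR was the one group whose 3 arrays all fell below 0, with a mean of -0.39 ± 0.18 (SD, n = 3), against 0.04 ± 0.36 in YSR, 0.12 ± 0.27 in OSR and 0.23 ± 0.54 in OR. In YR the type I mean was 0.35 ± 0.16 above the overall mean, while the interferon-gamma mean was -0.04 ± 0.06. In OR the interferon-gamma mean was 0.34 ± 0.24. Cxcl9 lay farthest above its own mean there (7.43 against 6.74), and Gbp2 (10.07 against 9.87) and Psmb9 lay nearer to theirs. In OR replicate 1 only Cxcl9 was above its own mean (7.38), while Gbp2 (9.65) and Psmb9 were below theirs. For type I the OR arrays spread from -0.63 in replicate 1 to 0.86 in replicate 3. The highest values of interferon-gamma minus type I, in OR replicate 1 and YSR replicate 1, fell in the 2 arrays of highest Gapdh ratio. With 1 array left out, its group mean ran from -0.098 to 0.2 in YSR and from -0.503 to -0.331 in YR. It ran from 0.053 to 0.26 in OSR and from 0.063 to 0.493 in OR. These averages are a description of chosen genes and carry no test.

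**Figure D5:**
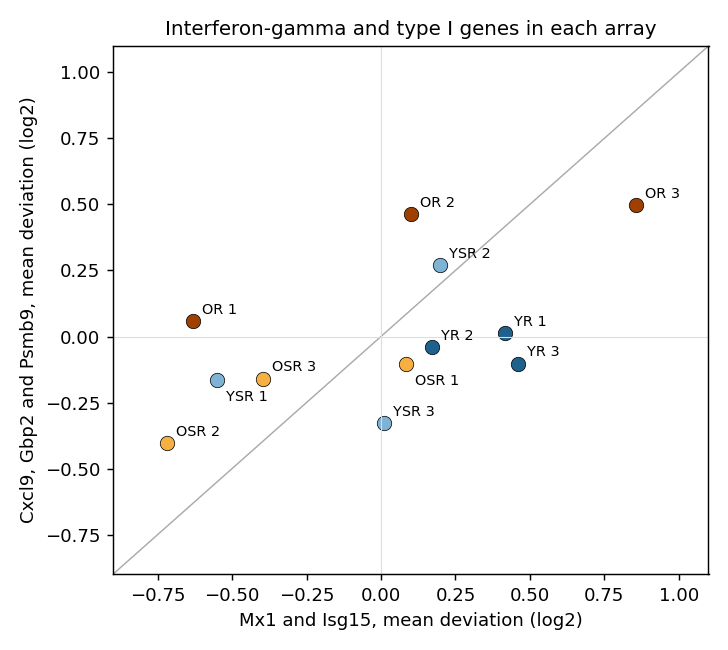
Each point is 1 of the 12 arrays, coloured by group, with the mean log2 deviation of Mx1 and Isg15 on the horizontal axis and that of Cxcl9, Gbp2 and Psmb9 on the vertical axis, and a grey line where both are equal. The 3 YR arrays lie below the line, and OR 1 is farthest above it, at 0.69, followed by YSR 1, at 0.39. OR 1 and YSR 1 are the 2 arrays of highest Gapdh ratio.

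Over the 12 arrays, 0 of the 10 pairs among these genes passed a permutation test after Benjamini-Hochberg adjustment over the 10. The closest pair was Gbp2 and Psmb9, with Pearson's r = 0.667 (permutation p = 0.0169, adjusted p = 0.115) and Spearman's rho = 0.72 (permutation p = 0.0103, adjusted p = 0.103). Its r was 0.55 without the 2 arrays farthest from the median of the first gene of the pair, here Gbp2. After the group means were taken out r was 0.594. Psmb9 and Isg15 gave r = 0.613 (permutation p = 0.0336, adjusted p = 0.115) and rho = 0.636 (permutation p = 0.03, adjusted p = 0.15), and r = 0.667 without the farthest 2. Psmb9 and Mx1 gave r = 0.609 (permutation p = 0.0345, adjusted p = 0.115) and rho = 0.573 (permutation p = 0.056, adjusted p = 0.166). Without OR replicate 3 and YR replicate 2, the arrays farthest from the median of Psmb9, r was 0.233. It was 0.811 without OR replicate 2, and 0.626 after the group means were taken out. The pair of type I genes, Mx1 and Isg15, gave r = 0.228 (permutation p = 0.477, adjusted p = 0.53) and rho = 0.217 (permutation p = 0.501, adjusted p = 0.557), with r = 0.1 without the farthest 2. Leaving out the farthest 2 also moved other pairs. For Cxcl9 and Mx1 r went from 0.141 to 0.779, and for Gbp2 and Mx1 from 0.384 to 0.725. Gbp2 and Isg15 fell from 0.553 to 0.289. The count of pairs passing was 2 without OR replicate 2 and 1 without YR replicate 2.

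The rest of the pathway was measured through 47 of 57 further genes, from ligands and receptors to signal carriers and other induced genes. None was called by limma in any of the 9 comparisons. At an unadjusted p under 0.05, 2 of the 47 were higher and 4 lower under rigid fixation, against 2.53% and 3.2% of all probe sets, and 0 were higher and 6 lower in old rats, against 4.7% and 3.89%. The further induced genes leaned the same way as the 38, with 18 of 24 higher under rigid fixation and a median log2 difference of 0.12, whereas 1 of 4 receptor genes did. The ligands gave weak signals, with a mean log2 signal of 2.59 for Ifng and 3.58 for Ifnb1, and Ifng ranged from 0.00, the floor, in OSR replicate 3 to 4.52 in OR replicate 3. The receptor genes Ifnar1 (9.46 to 10.02) and Ifngr1 (12.36 to 13.05) varied little between arrays. Socs1, a feedback inhibitor, ranged from 3.38 to 7.19.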

How the data were processed

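Pooled RNA from fracture hematoma was hybridised to Affymetrix rat arrays of 1 colour. The intensity deposited by the authors is a linear signal for each of 31099 probe sets, scaled to a common trimmed mean, and the processing notes name GCOS 1.2. The PLIER summaries named in the methods were not used here. Signals under 1 (558 values) were raised to 1 and taken to log2, and 57 control probe sets were left out. Scaling to a common mean hides any change shared by all genes. The number of arrays limits the precision.

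Gene names came from the platform annotation (20832 probe sets with 1 symbol, 436 with several, which name no gene here), and promoter sequences from RefSeq. Groups were compared with limma 3.58.1 (lmFit, eBayes with trend) in R 4.3.3 on all 12 arrays and 31042 probe sets, with Benjamini-Hochberg adjustment over all of them and calls at an adjusted p under 0.05. Age is old minus young, fixation is rigid minus semi-rigid, and the interaction is YSR minus YR, minus OSR minus OR. The fit was checked on simulated data. The methods' test was an unmoderated analysis of variance, called here at the same adjusted p. The paper's lists instead used a p under 0.05 with a fold-change cut, and it names no adjustment for them. Correlations used 100000 permutations, two-sided, in scipy 1.17.1, with numpy 2.4.6, pandas 2.3.3 and matplotlib 3.10.9 on Python 3.11.15.

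Values in every array are given for Cxcl9, Gbp2, Psmb9, Mx1 and Isg15, for up to 4 genes of smallest unadjusted p under 0.05 in each comparison but the 2 diagonal ones, and for the 3 genes of widest range among those at or above the median signal. Ifih1 in the plot of fixation differences, the means of Cxcl10, and the genes counted by name fall outside this rule. No measured value enters the rule for the members, but they and the other lists were chosen with earlier results of these data known. Alternatives were quantile normalization, a pseudocount of 16, a filter on dim probe sets, no trend, the arrays of a pair alone, the methods' test, a replicate block, the mean of all probe sets of a gene, and arrays left out.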

Additional observations from a re-analysis of the deposited data

How the results depend on the processing

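With limma, 0 interferon genes were called in each of the 9 comparisons under every alternative run. The count of genes higher under rigid fixation at an unadjusted p under 0.05 was 7 for both ages. It was 4 without the trend and 4 by the methods' test, 1 without the 3 arrays low in muscle markers, and 2 to 15 with 1 array left out. For young rats the count of 1 was 4 with the arrays of the pair alone, 2 by the methods' test, 5 without the 3 muscle-poor arrays and 0 to 4 with 1 array left out. For old rats the count of 5 was 3 without dim probe sets, 3 by the methods' test, 15 without the 2 arrays of highest Gapdh ratio, 0 without the muscle-poor arrays and 0 to 14 with 1 array left out. The genes higher under rigid fixation numbered 28 to 34 of 38 (both ages), 24 to 30 (young) and 23 to 34 (old) with 1 array left out.

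Without the 3 muscle-poor arrays, an alternative chosen after seeing the data, 13 genes were higher under rigid fixation in old rats. This alternative leaves OR replicate 1, an array of high Gapdh ratio, as the only OR array. The median log2 difference was then 0.11 for OSR minus OR, 0.39 for YR minus OR, 0.18 for YSR minus OR, -0.19 for age and -0.30 for the interaction, and the direction turned for Gbp2 in fixation (-0.0307) and for Gbp2 (-0.11), Psmb9 (-0.26) and Mx1 (-0.10) in the interaction. Without the 2 arrays of highest Gapdh ratio the median was -0.39 for YR minus OR and 0.44 for the interaction, and the age difference turned for Gbp2 (0.0863), Psmb9 (0.0475) and Isg15 (0.0078), as did the interaction of Isg15 (0.74). With a pseudocount of 16 the age difference of Gbp2 was 0.0002, and with the mean of all probe sets Cxcl9 and Mx1 gave r = -0.096.

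With 1 array left out, the median ran from -0.39 to 0.0848 for YR minus OR and from -0.10 to 0.37 for the interaction, and 0 to 2 correlation pairs passed. Values that turned ran from -0.0936 to 0.1045 (Gbp2), -0.14 to 0.0461 (Psmb9) and -0.28 to 0.19 (Isg15) for age, from -0.0735 to 0.36 for Mx1 in fixation, from -0.082 to 0.29 (Psmb9), -0.34 to 0.53 (Mx1) and -0.54 to 0.37 (Isg15) for the interaction, and from -0.105 to 0.479 for r of Cxcl9 and Mx1. The YSR mean of interferon-gamma minus type I ran from -0.098 to 0.2. The cause was not tested.

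No pairing of arrays by replicate number was found: deviations from the group means of same-numbered arrays had a median correlation of 0.019 over 18 pairs (-0.412 to 0.405), against 0.02 over 36 other pairs. With the replicate number as a block 0 genes were called, the count for both ages was 5 and that for old rats 4, and the block changed no call.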
